A study of Mus musculus with 14 samples.

Results

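A set of 10 heat shock chaperone genes was followed across donor CD4+ T cells sorted from lung, liver and spleen of transplanted mice. The 10 genes, Hspa1a, Hspa1b, Hspa8, Hsp90aa1, Hsph1, Hspd1, Hspe1, Dnajb1, Dnaja1 and Bag3, are 10 of the 25017 gene entries in the deposited count table, and all 10 passed the filter on low counts. They were chosen by their count differences between lung and liver cells in these same libraries, so their lung against liver values are given as a description with no test. The mice were BALB/c hosts of bone marrow from B6 (C57BL/6) donors that had been depleted of T cells (TCD-BM). Hosts that also received donor splenocytes formed the chronic graft-versus-host disease (cGVHD) groups, in which donor lymphocytes attack host organs. Hosts given TCD-BM without splenocytes formed the GVHD-free group. Tissues were collected 30 days after transplantation, and CD4+ T cells of donor origin were divided by cell sorting into fractions low (PSGL1lo) and high (PSGL1hi) for PSGL1, a selectin-binding glycoprotein encoded by Selplg. The 7 groups, of 2 libraries each, were PSGL1lo and PSGL1hi cells from cGVHD lung, the same fractions from cGVHD liver and from cGVHD spleen, and PSGL1lo cells from GVHD-free spleen. Each library is bulk RNA of a sorted fraction, the labels do not say whether the libraries of a group came from different mice or from pools, and the p-values below measure only the spread between these libraries, which may be technical.

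Heat shock proteins are chaperones that bind unfolded or newly made proteins and help them fold, hold them soluble or hand them on for degradation. The inducible members are driven by heat shock factor 1 (HSF1), which binds repeats of the 5-base unit nGAAn in their promoters after heat, oxidative stress or other loss of protein folding. Hspa1a and Hspa1b encode inducible HSP70, an ATP-driven chaperone. Hspa8 encodes HSC70, its constitutive relative, and Hsp90aa1 the inducible form of HSP90, which matures kinases and steroid receptors. Dnajb1 and Dnaja1 encode J-domain (HSP40) proteins that load clients onto HSP70, whereas Hsph1 (HSP110) and Bag3 encode nucleotide exchange factors that release them. Hspd1 and Hspe1 encode HSP60 and HSP10, the barrel and the lid of the mitochondrial folding chamber.

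Libraries held 13222005 to 33532595 counts over all genes. Levels below are CPM, counts per 1000000 of a library's total after TMM scaling, which multiplied the totals by factors between 0.898 (lung PSGL1hi) and 1.06 (GVHD-free). A level can be compared between libraries for 1 gene but not between genes, since CPM is not scaled by transcript length. A list of 5 CD4 T cell markers, all in the table, summed to 3718 to 7078 CPM per library. The library numbers in the labels fall into 2 runs, 1 for spleen and 1 for liver and lung together, so differences between spleen and the other organs cannot be told apart from differences between these runs. Dissociation and handling of each organ likewise cannot be told apart from the organ itself. In bulk RNA, more cells expressing a gene and more RNA of it per cell cannot be told apart.

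The promoters are shown because HSF1 sites there are the known common feature of inducible heat shock genes. RefSeq promoter windows on GRCm38.p6 were found for 8 of the 10 genes, in 13 windows, and for neither Hspa8 nor Hsp90aa1. Only the 250 bases before each start are used. The letter patterns TTCNNGAA and GAANNTTC, which pair adjacent HSF1 units, were searched. Each reads the same on both strands, and matches may overlap. Of the 13 windows, 7 held at least 1 match, and they belonged to 6 genes: Hspa1a, Hspa1b, Hsph1, Hspd1, Hspe1 and Dnaja1. Among all 32851 windows of that length in the table, 12.8% held a match. The 7 windows are not separate examples, as set out below the sequences, so nothing is read from their number beside that share. A match is a description of letters, not evidence of binding. In the sequences below, each 5′ to 3′ along the gene's strand, capitals mark the matches.
Hspa1a, 250 bases upstream, chr17:34972157-34972406 (minus strand): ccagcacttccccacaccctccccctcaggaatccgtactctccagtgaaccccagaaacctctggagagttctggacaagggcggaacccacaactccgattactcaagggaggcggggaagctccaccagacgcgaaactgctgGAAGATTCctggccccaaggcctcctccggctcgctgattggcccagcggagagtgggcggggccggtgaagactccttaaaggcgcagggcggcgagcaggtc
Hspa1b, 250 bases upstream, chr17:34959239-34959488 (minus strand): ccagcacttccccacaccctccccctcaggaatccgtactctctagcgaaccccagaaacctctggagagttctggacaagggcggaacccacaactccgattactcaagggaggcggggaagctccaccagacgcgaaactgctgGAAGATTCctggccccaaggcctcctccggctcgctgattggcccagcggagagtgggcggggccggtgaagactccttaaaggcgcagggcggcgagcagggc
Hsph1, 60 of the upstream bases, chr5:149636337-149636396 (minus strand): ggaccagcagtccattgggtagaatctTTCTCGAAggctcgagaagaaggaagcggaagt
Hspe1, 60 of the upstream bases, chr1:55088038-55088097 (plus strand): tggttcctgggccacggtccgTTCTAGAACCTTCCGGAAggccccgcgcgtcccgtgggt
Dnaja1, 60 of the upstream bases, chr4:40722318-40722377 (plus strand): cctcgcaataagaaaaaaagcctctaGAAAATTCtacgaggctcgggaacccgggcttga

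The Hspa1a and Hspa1b windows differed at 3 of 250 bases and held the same match at the same place, so they are not separate examples. The Hsph1 windows overlapped each other and held the same match. The Hspe1 stretch held 3 overlapping matches, and 0.14% of all windows held at least 3. Hspd1 and Hspe1 lie head to head on opposite strands, and the 1 Hspd1 window with matches held these same bases read on the other strand, so the 2 genes do not count as separate examples. The windows of Dnajb1 and Bag3 held no match to either pattern, which says only that these letters are not in those windows.

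All 10 genes were higher in lung cells than in liver cells in both fractions, by between 1.74-fold and 312-fold in PSGL1lo cells and between 1.80-fold and 474-fold in PSGL1hi cells. The inducible HSP70 genes Hspa1a and Hspa1b stood far ahead, followed by their J-domain partner Dnajb1. The mitochondrial pair Hspd1 and Hspe1 differed least. The median log2 difference of lung over liver was 1.44 for the 10 genes in PSGL1lo cells and 1.91 in PSGL1hi cells, against -0.00061 and -0.0024 for all 13780 genes tested. No lung library of a fraction overlapped the liver libraries of the same fraction for any of the 10 genes. Over all genes tested, 31.9% were higher in lung without overlap in PSGL1lo cells and 35.8% in PSGL1hi cells, and a log2 difference of at least 1, reached by 8 of the 10 genes in each fraction, was reached by 10.9% and 9.30% of all genes. Because this contrast chose the genes, nothing is read from those counts.

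**Figure D1:**
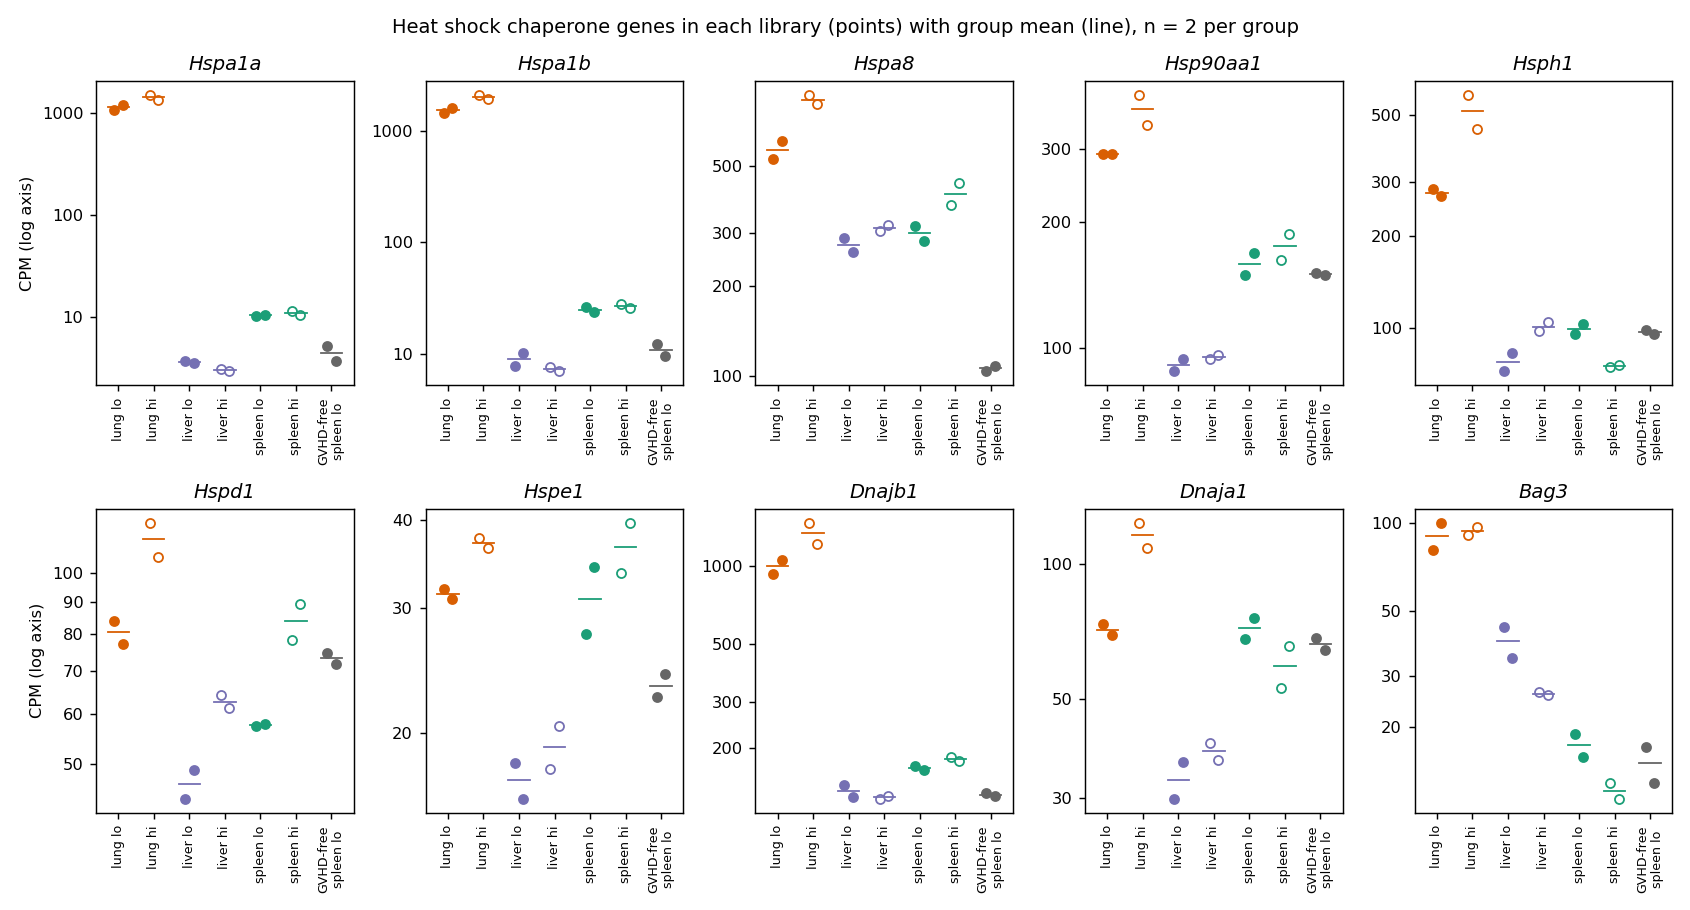
Level of each of the 10 genes in CPM on a log axis (ticks differ between panels), by group, with 1 point per library and a line at the group mean (n = 2). "lo" and "hi" are the PSGL1lo (filled) and PSGL1hi (open) fractions. The lung libraries lie above the liver libraries in every panel, while spleen libraries reach the lung PSGL1lo levels for Hspe1, Hspd1 and Dnaja1.

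Hspa1a, inducible HSP70, was at 1075 and 1192 CPM in lung PSGL1lo cells and at 1498 and 1343 CPM in lung PSGL1hi cells. It was at 3.69 and 3.54 CPM in liver PSGL1lo cells and at 3.05 and 2.94 CPM in liver PSGL1hi cells. Spleen cells had 10.1 and 10.45 CPM in the cGVHD PSGL1lo fraction, 11.4 and 10.5 CPM in the cGVHD PSGL1hi fraction, and 5.18 and 3.72 CPM in the GVHD-free PSGL1lo fraction. The 4 lung libraries thus stood far above all others, and every pair of groups next to each other in this order was free of overlap. The liver values rested on 68 to 129 counts per library and the lung values on 25369 to 34654. The log2 difference of lung over liver was 8.29 in PSGL1lo cells and 8.89 in PSGL1hi cells, which ranked 24 and 7 from the top among the 13780 genes.

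Its near copy Hspa1b had 1461 and 1625 CPM in lung PSGL1lo cells and 2117 and 1926 CPM in lung PSGL1hi cells. The corresponding liver values were 7.79 and 10.02 CPM for PSGL1lo and 7.50 and 6.96 CPM for PSGL1hi cells. In spleen, Hspa1b was at 26.1 and 23.5 CPM in cGVHD PSGL1lo cells, 28.0 and 25.5 CPM in cGVHD PSGL1hi cells and 12.1 and 9.45 CPM in GVHD-free PSGL1lo cells. The order of the groups was that of Hspa1a, with lung highest, spleen between and liver lowest, though liver PSGL1lo overlapped GVHD-free spleen and the 2 cGVHD spleen fractions overlapped each other. Lung exceeded liver by 7.46 in PSGL1lo cells and by 8.13 in PSGL1hi cells on the log2 scale. The longest open reading frames of the 2 genes aligned over 1926 bases with 8 mismatches (99.58% identity), so reads may have been assigned to either copy or dropped, and values of the single copies are uncertain. Summed before the fit, the 2 genes differed by 7.75 in PSGL1lo cells and 8.40 in PSGL1hi cells.

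The ratio of Hspa1a to Hspa1b counts was not the same in all organs. It was 0.736 and 0.734 in lung PSGL1lo cells and 0.708 and 0.697 in lung PSGL1hi cells, against 0.474 and 0.353 in liver PSGL1lo cells and 0.407 and 0.422 in liver PSGL1hi cells. The 6 spleen libraries ranged between 0.387 and 0.446, within the liver range. Lung libraries therefore stood apart from all 10 others in this ratio. The neighbouring Hspa1l, a testis-enriched HSP70 gene on the opposite strand next to Hspa1a, averaged 2.39 CPM in lung PSGL1lo cells and 1.70 CPM in lung PSGL1hi cells, against 0.0994 CPM in liver PSGL1lo cells. It had no count in the liver PSGL1hi libraries, where 3 counts would be 0.134 and 0.107 per 1000000 of the unscaled totals. No source used here gives the strand setting of the counting, so reads of Hspa1l and of Hspa1a that run past their ends cannot be told apart.

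**Figure D2:**
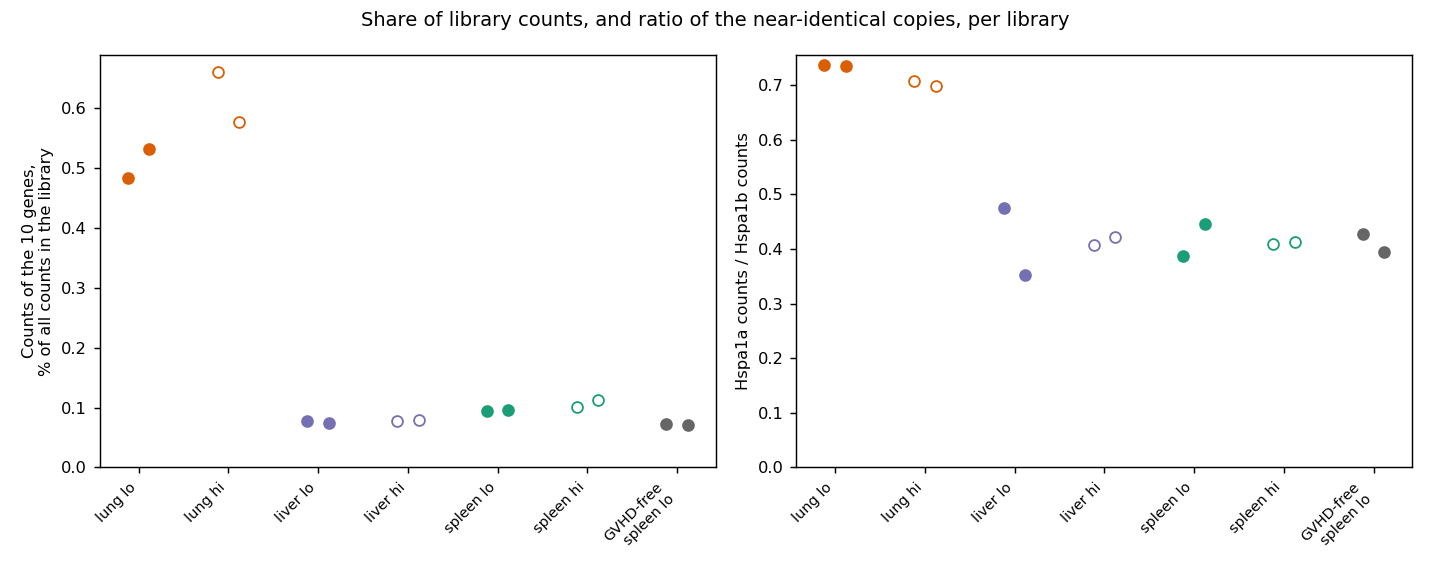
Left, counts of the 10 genes as a percentage of all counts in each library; right, Hspa1a counts divided by Hspa1b counts; each point is 1 library, filled for PSGL1lo and open for PSGL1hi. On the left the lung libraries lie between 0.484% and 0.660% and the others between 0.0709% and 0.113%; on the right the lung libraries lie between 0.697 and 0.736 and the others between 0.353 and 0.474.

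Together the 10 genes took 0.484% and 0.531% of all counts in lung PSGL1lo cells and 0.660% and 0.577% in lung PSGL1hi cells, against 0.0772% and 0.0738% in liver PSGL1lo cells and 0.0778% and 0.0790% in liver PSGL1hi cells. Hspa1a and Hspa1b supplied 49.5% to 53.0% of the 10 genes' counts in lung libraries and 1.23% to 3.90% in the 10 other libraries. These are shares of counts, not scaled by transcript length.

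Dnajb1, the stress-inducible J-domain partner of HSP70, was at 929 and 1055 CPM in lung PSGL1lo cells and 1461 and 1209.6 CPM in lung PSGL1hi cells. Liver PSGL1lo cells had 145 and 131 CPM and liver PSGL1hi cells 128 and 131 CPM. Spleen values were 172 and 166 CPM in cGVHD PSGL1lo cells, 185 and 179 CPM in cGVHD PSGL1hi cells and 135 and 131 CPM in GVHD-free PSGL1lo cells. Liver and GVHD-free spleen overlapped, the cGVHD spleen fractions lay just above them, and lung lay 5.88-fold above cGVHD spleen in PSGL1lo cells and 7.35-fold in PSGL1hi cells. The lung over liver log2 difference was 2.84 in PSGL1lo cells and 3.36 in PSGL1hi cells. The other J-domain gene, Dnaja1, had 73.4 and 69.5 CPM in lung PSGL1lo cells and 124 and 109 CPM in lung PSGL1hi cells, against 29.9 and 36.1 CPM in liver PSGL1lo cells and 39.8 and 36.5 CPM in liver PSGL1hi cells. Spleen cells had 68.1 and 75.9 CPM in the cGVHD PSGL1lo fraction, 52.8 and 65.8 CPM in the cGVHD PSGL1hi fraction, and 68.5 and 64.4 CPM in the GVHD-free PSGL1lo fraction. For Dnaja1 liver was lowest, and lung PSGL1lo and cGVHD spleen PSGL1lo cells overlapped with a log2 difference of -0.01. In PSGL1hi cells lung lay above cGVHD spleen by 0.97 on the log2 scale, without overlap.

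Hsph1, the HSP110 exchange factor, had 285 and 270.3 CPM in lung PSGL1lo cells and 582 and 451 CPM in lung PSGL1hi cells. In liver it had 72.0 and 82.5 CPM in PSGL1lo cells and 97.4 and 104 CPM in PSGL1hi cells. Spleen values were 95.5 and 103 CPM in cGVHD PSGL1lo cells, 74.5 and 75.4 CPM in cGVHD PSGL1hi cells and 98.0 and 95.3 CPM in GVHD-free PSGL1lo cells. Lung was highest. Cells of cGVHD spleen PSGL1hi and liver PSGL1lo overlapped at the low end, and GVHD-free spleen, cGVHD spleen PSGL1lo and liver PSGL1hi cells overlapped just above them. Bag3, the exchange factor that links HSP70 to selective autophagy, had another order. It was at 80.6 and 100.3 CPM in lung PSGL1lo cells and 90.9 and 97.0 CPM in lung PSGL1hi cells, at 43.9 and 34.6 CPM in liver PSGL1lo cells and 26.4 and 25.7 CPM in liver PSGL1hi cells. Spleen values were 19.0 and 15.8 CPM in cGVHD PSGL1lo cells, 12.9 and 11.4 CPM in cGVHD PSGL1hi cells and 17.1 and 12.9 CPM in GVHD-free PSGL1lo cells. Liver thus stood above spleen for Bag3, by 1.18 in PSGL1lo cells and 1.10 in PSGL1hi cells on the log2 scale, while the median over the 10 genes of liver over spleen was -0.59 and -0.56.

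The constitutive HSP70 gene Hspa8 had 528 and 607 CPM in lung PSGL1lo cells and 865 and 804 CPM in lung PSGL1hi cells, against 289 and 259.8 CPM in liver PSGL1lo cells and 304 and 318 CPM in liver PSGL1hi cells. Its spleen values were 317 and 283 CPM in cGVHD PSGL1lo cells, 371 and 440.02 CPM in cGVHD PSGL1hi cells and 104 and 108 CPM in GVHD-free PSGL1lo cells. GVHD-free spleen, not liver, was the lowest group for Hspa8. Hsp90aa1 averaged 292 ± 0.48 CPM in lung PSGL1lo cells and 374 ± 44.2 CPM in lung PSGL1hi cells, against 90.9 ± 4.36 and 95.1 ± 1.49 CPM in liver PSGL1lo and PSGL1hi cells (SD, n = 2 each). Its 6 spleen libraries lay between 149 and 188 CPM, above all liver and below all lung libraries, with the 3 spleen groups overlapping.

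Hspd1, mitochondrial HSP60, averaged 80.6 ± 4.67 CPM in lung PSGL1lo cells and 113 ± 10.02 CPM in lung PSGL1hi cells, against 46.5 ± 3.43 and 62.7 ± 2.15 CPM in liver PSGL1lo and PSGL1hi cells (SD, n = 2 each). In spleen it averaged 57.6 ± 0.38 CPM in cGVHD PSGL1lo cells, 83.8 ± 7.88 CPM in cGVHD PSGL1hi cells and 73.4 ± 2.11 CPM in GVHD-free PSGL1lo cells. Its partner Hspe1 averaged 31.4 ± 0.76 CPM in lung PSGL1lo cells and 37.1 ± 0.83 CPM in lung PSGL1hi cells, against 17.2 ± 1.40 and 19.1 ± 1.84 CPM in liver PSGL1lo and PSGL1hi cells (SD, n = 2 each). In spleen Hspe1 averaged 31.0 ± 4.72 CPM in cGVHD PSGL1lo cells, 36.6 ± 4.23 CPM in cGVHD PSGL1hi cells and 23.3 ± 1.22 CPM in GVHD-free PSGL1lo cells. For Hspe1 the log2 difference of lung over spleen was 0.02 in both fractions, and the lung and cGVHD spleen libraries of each fraction overlapped. The annotation places Hspd1 and Hspe1, and Dnaja1 and the splicing gene Smu1, on overlapping opposite strands, so reads of the partners cannot be told apart without the strand setting. Smu1 averaged 142 CPM in lung PSGL1lo cells and 148 CPM in lung PSGL1hi cells, against 136 and 150.2 CPM in liver PSGL1lo and PSGL1hi cells.

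**Figure D3:**
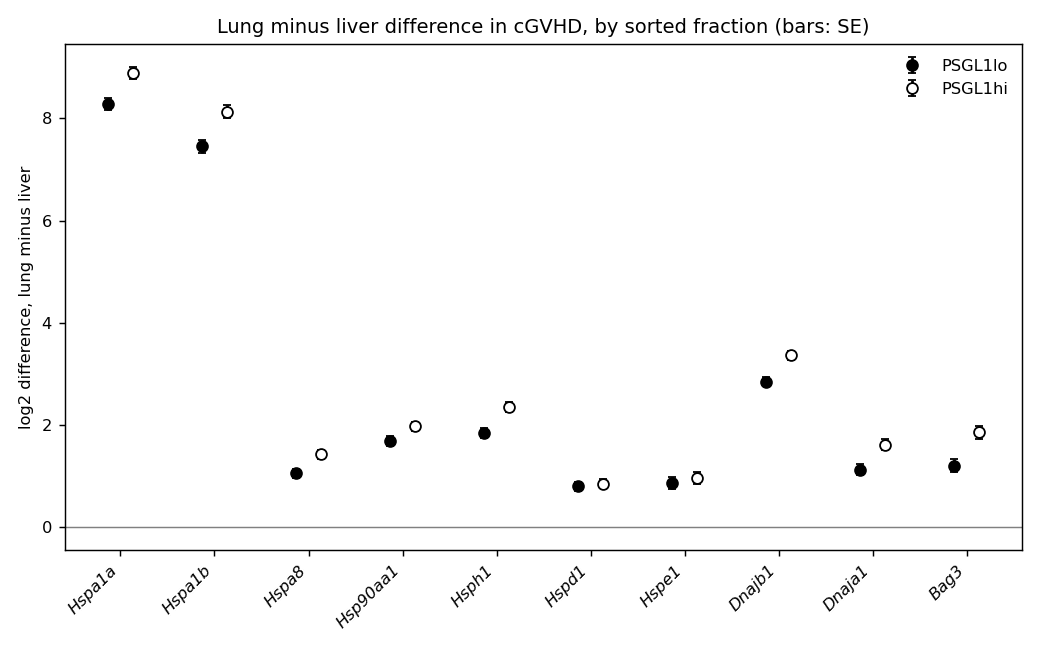
Log2 difference of lung minus liver in cGVHD cells for each of the 10 genes, with PSGL1lo filled and PSGL1hi open; bars are standard errors of the fit (2 libraries per group). All points lie above 0, from 0.80 for Hspd1 to 8.29 for Hspa1a in PSGL1lo cells and from 0.85 to 8.89 for the same genes in PSGL1hi cells.

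Markers of other cells moved with the organs. The 11 myeloid markers, all in the table, summed to 766 to 1163 CPM in lung PSGL1lo cells and 681 to 847 CPM in lung PSGL1hi cells, against 27.6 to 107 CPM in liver PSGL1lo cells and 28.1 to 69.0 CPM in liver PSGL1hi cells. Of the 11 genes, 9 had a positive log2 difference of lung over liver in each fraction, and the list's median was 3.04 in PSGL1lo cells and 2.55 in PSGL1hi cells. Most of the lung level was the lysozyme gene Lyz2, at 633 and 965 CPM in PSGL1lo cells and 559 and 700 CPM in PSGL1hi cells. The monocyte receptor gene Cd14 differed by 7.37 and 6.73 in the 2 fractions on the log2 scale and the complement gene C1qa by 3.04 and 3.12. The neutrophil genes S100a8 and S100a9 had negative differences, and the macrophage receptor gene Marco was at 0.235 CPM or less in every lung and liver library. In spleen the myeloid sum was 170.1 to 181 CPM in cGVHD PSGL1lo cells, 351 to 378 CPM in cGVHD PSGL1hi cells and 116 to 119 CPM in GVHD-free PSGL1lo cells. Of the 11 myeloid genes, 4 had a positive log2 difference of lung over cGVHD spleen in PSGL1lo cells and 3 in PSGL1hi cells. The list's medians in that comparison were -0.27 and -1.68, so most of its genes were not highest in lung. The 8 lung epithelium markers summed to 13.99 to 97.0 CPM in lung PSGL1lo cells and 45.4 to 53.2 CPM in lung PSGL1hi cells, against 12.2 to 13.8 CPM in the liver groups, where the surfactant genes Sftpc, Sftpb, Sftpa1 and Sftpd had no count. The airway gene Scgb1a1 was at 1.99 and 78.6 CPM in the 2 lung PSGL1lo libraries. Hepatocyte markers, 7 of 8 in the table, summed to 44.5 to 52.1 CPM in liver PSGL1lo cells and 17.8 to 23.0 CPM in liver PSGL1hi cells, against 0.042 to 0.392 CPM in the lung libraries. Endothelial and stromal markers summed to 199.9 to 215 CPM in lung PSGL1lo and 144 to 151 CPM in lung PSGL1hi cells, against 133 to 147 and 100.5 to 108 CPM in the same liver fractions. The B and plasma cell sum was at most 17.3 CPM in lung and 8.30 CPM in liver libraries, and the erythroid sum at most 0.842 CPM in both organs. The sum of the CD8 T cell genes Cd8a and Cd8b1 was 12.1 to 12.4 CPM in lung PSGL1lo cells and 28.5 to 30.6 CPM in lung PSGL1hi cells, against 28.0 to 31.5 CPM in liver PSGL1lo cells and 140.9 to 142 CPM in liver PSGL1hi cells. The part of these other cells in the chaperone levels was not tested.

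**Figure D4:**
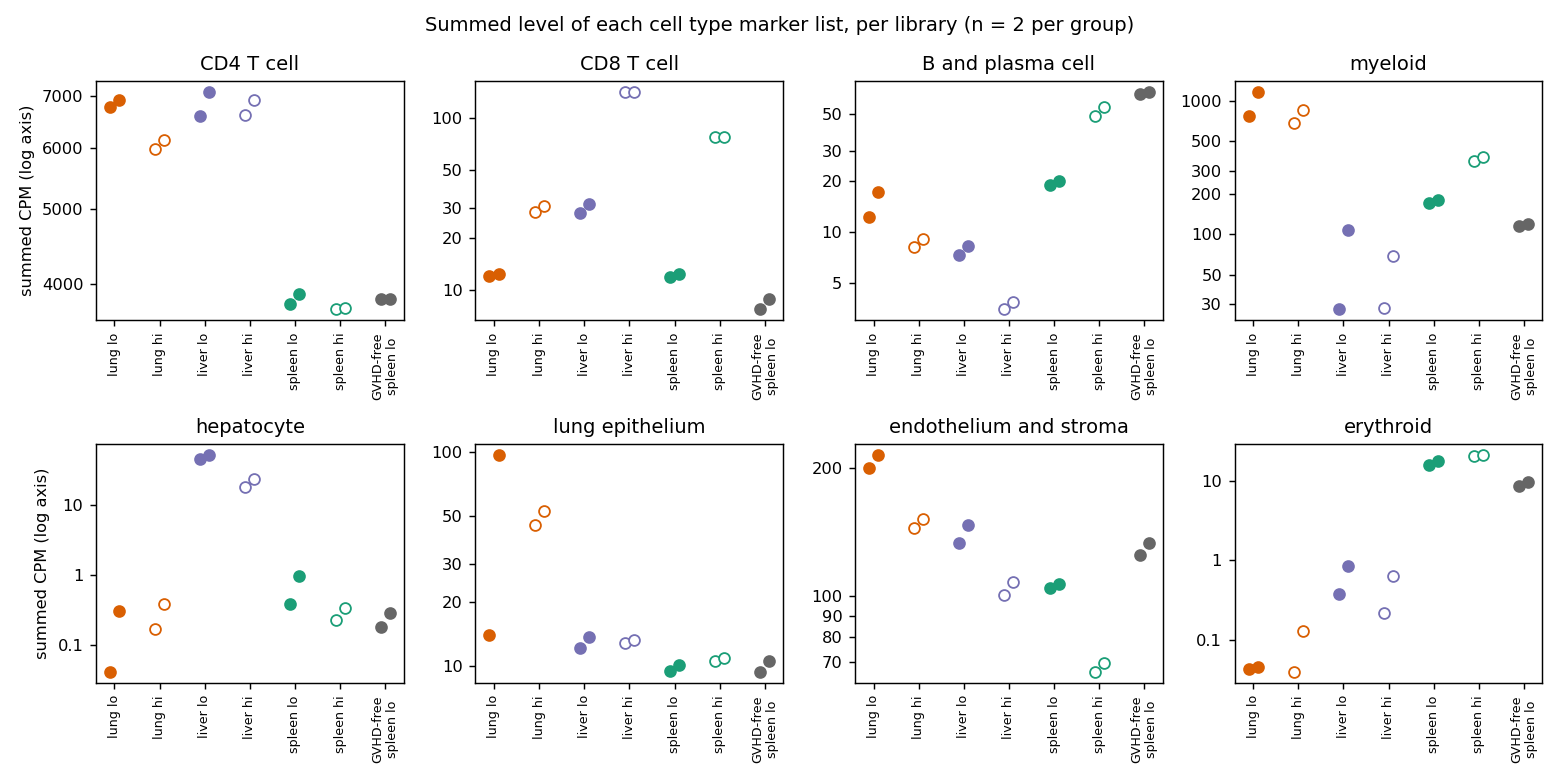
Summed CPM on a log axis of each list of cell type markers, by group, with 1 point per library placed from lower to higher (n = 2 per group), filled for PSGL1lo and open for PSGL1hi. The myeloid sum, mostly Lyz2 in lung, lies highest in lung and the hepatocyte sum in liver. The lung epithelium sum lies well above the other organs in 3 of the 4 lung libraries and just above them in the other.

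Among the 14 libraries the 10 genes did not move as 1 block. Over all 45 pairs of members, Pearson's r of log2(CPM + 1), scaled with TMM factors, ranged between 0.131 for Hspe1 with Bag3 and 0.999 for Hspa1a with Hspa1b, with a median of 0.757. Each gene's r with the mean profile of the 10 was lowest for Bag3, at 0.728, and highest for Hspa1b, at 0.980. These are descriptions over 14 libraries that share organs and library series.

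Within lung, 8 of the 10 genes were lower in PSGL1lo than in PSGL1hi cells, and the 2 others, also with negative differences, did not pass the test (edgeR's quasi-likelihood test, Benjamini-Hochberg adjusted p under 0.05 over 13780 genes). Of all genes tested, 33.0% were called in this comparison, 20.1% lower and 12.9% higher. The fall was steepest for the exchange factor Hsph1, with a log2 difference of -0.90 ± 0.09 (SE; edgeR adjusted p = 1.5e-07), and for the J-domain gene Dnaja1, at -0.70 ± 0.10 (edgeR adjusted p = 1.8e-05). Hspa8 fell by 0.56, Hspd1 by 0.48, Dnajb1 by 0.43, Hspa1b by 0.39, Hsp90aa1 by 0.36 and Hspa1a by 0.32 on the log2 scale, with edgeR adjusted p between 3.0e-05 and 0.0024. Summed as 1 gene, Hspa1a and Hspa1b fell by 0.36 ± 0.08 (SE; edgeR adjusted p = 0.0020). The genes that missed the threshold were Hspe1, at -0.24 ± 0.11 (edgeR adjusted p = 0.121), and Bag3, at -0.06 ± 0.12 (edgeR adjusted p = 0.773). The median of the 10 was -0.41, against -0.03 over all genes. Without the first lung PSGL1hi library, in which 9 of the 10 genes were higher than in the second lung PSGL1hi library, Hspa1a and Hsp90aa1 lost their calls (edgeR adjusted p = 0.0551 and 0.0837) and 6 remained. The 2 CD8 genes were lower in PSGL1lo cells in lung, liver and spleen alike, with median log2 differences of -1.53, -2.17 and -2.69, and their sum in spleen was 11.8 to 12.3 CPM in PSGL1lo cells and 77.5 to 77.6 CPM in PSGL1hi cells. The part of CD8 cells in the differences between fractions was not tested. The lung and liver libraries of these comparisons are the ones in which the genes were chosen, although the contrast between fractions is not.

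In liver 3 of the 10 genes passed the test. Bag3 was higher in PSGL1lo than in PSGL1hi cells, by 0.60 ± 0.13 on the log2 scale (SE; edgeR adjusted p = 0.0021), while Hsph1 fell by 0.39 ± 0.10 (edgeR adjusted p = 0.0064) and Hspd1 fell by 0.43 ± 0.09 (edgeR adjusted p = 0.0013). The other 7 genes did not pass the test, with log2 differences between -0.21 for Dnaja1 and 0.28 for Hspa1a and Hspa1b. Of all genes, 20.8% were called, 8.50% higher and 12.3% lower. Bag3 and Hsph1 each lost the call without the first liver PSGL1lo library (edgeR adjusted p = 0.0515 and 0.0888), and Hsph1 also without the second liver PSGL1hi library (edgeR adjusted p = 0.084).

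Spleen libraries are not part of the lung against liver contrast that chose the genes, but earlier results of these data were known. In spleen, Hsph1 and Bag3 were higher in PSGL1lo than in PSGL1hi cells and Hspa8 and Hspd1 were lower. The log2 differences were 0.41 ± 0.10 for Hsph1 (SE; edgeR adjusted p = 0.0033) and 0.52 ± 0.16 for Bag3 (edgeR adjusted p = 0.0145). Hspa8 fell by 0.44 ± 0.09 (edgeR adjusted p = 0.00060) and Hspd1 by 0.54 ± 0.09 (edgeR adjusted p = 8.8e-05). Of all genes, 15.8% were higher and 16.7% lower, so 4 calls in 10 genes is near the share of all genes called, 32.5%. The 6 other genes ranged between -0.24 for Hspe1 and 0.28 for Dnaja1, whose edgeR adjusted p was 0.0546. Dnaja1 passed under DESeq2 (adjusted p = 0.0381), with DESeq2 size factors in edgeR (0.0393), with no filter on low counts (0.0225), with only the 2 groups compared in the edgeR fit (0.0324) and without the second PSGL1hi library (0.0135). Bag3 lost its call under limma voom (adjusted p = 0.0588), and in edgeR without the first PSGL1lo library (edgeR adjusted p = 0.175) or the second PSGL1hi library (0.142), and Hsph1 without the second PSGL1lo library (0.0587). Hspd1 was the 1 gene of the 10 called lower in PSGL1lo cells in all 3 organs. The share of all genes called lower in all 3 was not counted, so nothing is read from that. Other markers also differed between the spleen fractions. Of the 11 myeloid markers 5 were lower in PSGL1lo cells, and of the 5 B and plasma cell markers tested 2 were lower and 1 higher. Of the 7 endothelial and stromal markers 2 were higher and 1 lower. The part of these other cells in the chaperone differences between spleen fractions was not tested.

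**Figure D5:**
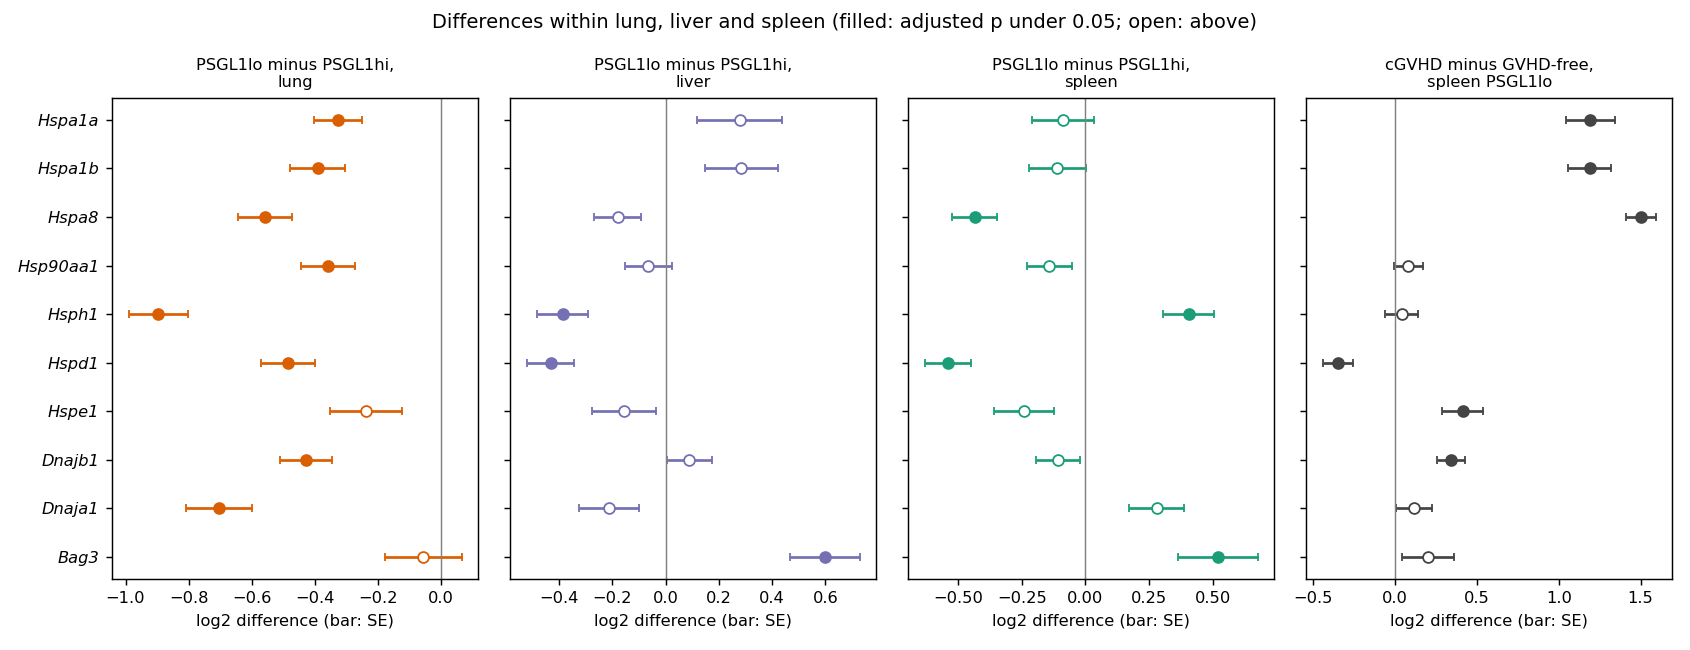
Log2 differences for the 10 genes, with standard errors of the fit as bars: PSGL1lo minus PSGL1hi in cGVHD lung, liver and spleen, and cGVHD minus GVHD-free in spleen PSGL1lo cells (axes differ between panels). Filled points have an edgeR adjusted p under 0.05, with 8 filled in lung, 3 in liver, 4 in spleen and 6 in cGVHD minus GVHD-free.

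The difference between fractions itself differed between organs for Hsph1 and Dnaja1. For Hsph1 the PSGL1lo effect in lung minus that in spleen was -1.30 ± 0.14 on the log2 scale (SE; edgeR adjusted p = 1.1e-06), and for Dnaja1 it was -0.98 ± 0.15 (edgeR adjusted p = 9.4e-05). No other of the 10 genes passed this test, in which 16.6% of all genes were called, 11.1% lower and 5.51% higher, although Bag3 at -0.58 (edgeR adjusted p = 0.0523) and Dnajb1 at -0.32 (edgeR adjusted p = 0.0693) came close. Bag3 passed under DESeq2 (adjusted p = 0.0403), with only the groups compared in the edgeR fit (0.039) and with no filter on low counts (0.00544). Between liver and spleen the effect of Hsph1 was -0.79 ± 0.14 (SE; edgeR adjusted p = 0.0016), the 1 gene of the 10 to pass, where 6.84% of all genes were called, 4.20% lower and 2.64% higher. The 2 tests share the spleen libraries, and their calls in 10 genes, 2 and 1, are near these shares of all genes. Between lung and liver the difference of the effects was not tested, since it is built from the contrasts that chose the genes. The immediate early genes are a list of stress and activation genes that change within minutes to hours of tissue dissociation. Their summed level was 12460 to 14467 CPM in lung PSGL1lo cells and 18352 to 18362 CPM in lung PSGL1hi cells. In liver it was 9223 to 9781 CPM in PSGL1lo cells and 8035 to 8248 CPM in PSGL1hi cells. In cGVHD spleen it was 9597 to 10102 CPM and 8580 to 8769 CPM in the same fractions. The sum was thus lower in PSGL1lo than in PSGL1hi cells in lung and higher in liver and spleen. Hsph1 was lower in PSGL1lo cells in lung and liver and higher in spleen. For lung minus spleen the effect was called lower for 21 of the 26 immediate early genes and higher for 2. For liver minus spleen it was called lower for 4, higher for 1 and not called for 21. The part of the immediate early genes in the chaperone differences was not tested.

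Of the 10 genes, 5 were higher in spleen PSGL1lo cells of cGVHD mice than of GVHD-free mice, 1 was lower and 4 did not pass the test. Of all genes, 27.5% were called, 14.7% higher and 12.8% lower. Only the cGVHD hosts received donor splenocytes, so disease cannot be told apart from the donor cells given. Markers of B and plasma cells moved in the same comparison: all 5 that passed the filter were lower, and the list's sum was 18.9 to 20.03 CPM in cGVHD cells, against 65.6 to 67.3 CPM in GVHD-free cells. Of the 11 myeloid markers 3 were higher and 2 lower. Of the 7 endothelial and stromal markers 2 were higher and 1 lower, and the 1 erythroid marker that passed the filter was higher. The part of these other cells in the chaperone differences of this comparison was not tested. None of these 4 libraries is part of the lung against liver contrast that chose the genes, but earlier results of these data were known. Hspa8 changed most, by 1.50 ± 0.09 on the log2 scale (SE; edgeR adjusted p = 4.0e-11), a 2.83-fold difference. Hspa1a and Hspa1b each rose by 1.19, with edgeR adjusted p of 2.7e-06 and 3.7e-07, and their sum rose by 1.19 ± 0.12 (SE; edgeR adjusted p = 6.5e-08). Hspe1 rose by 0.41 ± 0.12 (edgeR adjusted p = 0.016) and Dnajb1 by 0.34 ± 0.09 (edgeR adjusted p = 0.0049), whereas Hspd1 fell by 0.35 ± 0.09 (edgeR adjusted p = 0.0066). Hsp90aa1, Hsph1, Dnaja1 and Bag3 had log2 differences of 0.08, 0.04, 0.12 and 0.20, with edgeR adjusted p between 0.40 and 0.82. The mitochondrial partners Hspd1 and Hspe1 thus moved in opposite directions, but neither call held with every library left out in turn. Hspe1 lost its call without the first GVHD-free library (edgeR adjusted p = 0.137) or the second cGVHD library (0.286), Hspd1 without the first GVHD-free (0.0713) or the first cGVHD library (0.055), and Dnajb1 without the second GVHD-free library (0.0509).

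Most lists of the wider chaperone system had smaller median differences between lung and liver than the 10 genes, with no test of the lists; the exception was the small heat shock proteins in PSGL1lo cells. Of 28 further cytosolic chaperones and cochaperones, the median log2 difference of lung over liver was 0.18 in PSGL1lo cells and 0.21 in PSGL1hi cells. It was 0.14 and 0.12 for 14 subunits of the TRiC chaperonin and prefoldin, which fold actin and tubulin, and -0.07 and -0.11 for 11 mitochondrial chaperones and proteases. For 18 chaperones and stress genes of the endoplasmic reticulum, called reticulum genes below, it was -0.15 and -0.04. Lung values lay further up for the 10 heat shock factors and regulators, at 0.58 and 0.67, and for the 26 immediate early genes, at 0.56 and 0.94. Of 9 genes listed as small heat shock proteins, 4 passed the filter. Their median was 1.88 in PSGL1lo cells, above the 1.44 of the 10 genes, and 1.48 in PSGL1hi cells. Both medians are the same with Hspb1, which had no count in liver, set to the limit that 3 counts per liver library allow. The median in PSGL1lo cells leans on Cryab, with 24 counts in lung and 3 in liver. All 9 summed to 15.2 to 17.99 CPM in lung PSGL1lo cells and 18.8 to 20.4 CPM in lung PSGL1hi cells, against 9.22 to 10.2 CPM in liver PSGL1lo cells and 11.7 to 13.1 CPM in liver PSGL1hi cells. Single genes with larger differences were the J-domain gene Dnajb4, at 2.23 in PSGL1lo cells and 2.47 in PSGL1hi cells, and the metallothioneins Mt1, at 3.27 and 2.13, and Mt2, at 3.15 and 2.85.

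Between fractions in lung, most genes called in these lists were lower in PSGL1lo cells. The shares among all genes were 20.1% lower and 12.9% higher. Of the 28 cytosolic cochaperones 12 were lower and 1 was higher, and of the 18 reticulum genes 11 were lower. Of the 14 chaperonin and prefoldin subunits 7 were lower, and of the 26 immediate early genes 17 were lower and 2 higher. Dnajb4 fell by 0.88 (edgeR adjusted p = 2.1e-05), the reticulum stress gene Herpud1 by 0.76 (edgeR adjusted p = 1.4e-07) and the TRiC subunit Cct2 by 0.40 (edgeR adjusted p = 0.00014). In spleen 16.7% of all genes were lower and 15.8% higher. There 7 cochaperones were lower and 2 higher, 9 chaperonin subunits were lower, and 10 reticulum genes were lower and 3 higher. Of the immediate early genes 11 were higher and 1 was lower. The cochaperone gene Dnaja4 was among the higher ones in spleen, at 0.62 (edgeR adjusted p = 0.00033), as was the reticulum stress factor Ddit3, at 0.59 (edgeR adjusted p = 0.00053). In liver 12.3% of all genes were lower and 8.50% higher. There 8 cochaperones, 5 chaperonin subunits and 7 reticulum genes were lower, and of the immediate early genes 11 were higher and 5 lower. When the effect in lung was set against that in spleen, where 11.1% of all genes were lower and 5.51% higher, 21 of the 26 immediate early genes were lower and 2 higher, Atf3 at -1.55 (edgeR adjusted p = 1.8e-06) and Klf4 at -1.25 (edgeR adjusted p = 3.5e-06) among them. Mitochondrial chaperones had 2 lower in lung, 1 in liver and 1 in spleen, the small heat shock proteins 1 in lung and 1 in liver, and the factors and regulators 2 lower and 2 higher in lung, 1 lower in liver, and 3 lower and 1 higher in spleen. The 2 of 11 mitochondrial chaperones lower in lung are near the share of all genes.

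Set against GVHD-free cells, spleen PSGL1lo cells of cGVHD mice had 7 of the 28 cytosolic cochaperones and 5 of the 10 factors and regulators higher, where 14.7% of all genes were higher and 12.8% lower. The testis-enriched HSP70 relative Hspa2 rose by 1.12 (edgeR adjusted p = 8.2e-07), the steroid receptor cochaperone Fkbp5 by 1.08 (edgeR adjusted p = 1.2e-09), Mt1 by 1.83 (edgeR adjusted p = 5.2e-06) and the heme oxygenase gene Hmox1 by 0.83 (edgeR adjusted p = 1.9e-05). Of the other lists, 1 chaperonin subunit and 3 mitochondrial chaperones were lower, and 1 reticulum gene was higher and 2 were lower. Among the small heat shock proteins 1 was higher and 1 lower, and 10 immediate early genes were higher and 5 lower. The lower small heat shock protein was Cryab, with 0 counts in the cGVHD group and 11 in the GVHD-free group.

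Outside the 10, 8 genes had the profile most like their mean over the 14 libraries, by Pearson's r: Nfil3 (0.986), Cd36 (0.979), Fosl2 (0.977), Dnajb4 (0.971), Crem (0.969), Rgs2 (0.968), Ccrl2 (0.968) and Tppp (0.966). All 8 were highest in the 2 lung groups, which follows from how they were picked: the mean profile is that of genes chosen on lung against liver. The values and tests below come from the same 14 libraries. Fosl2, an AP-1 subunit, averaged 264 CPM in lung PSGL1lo cells and 543 CPM in lung PSGL1hi cells, against 21.6 CPM in liver PSGL1lo cells and 28.0 CPM in liver PSGL1hi cells. Cd36, a scavenger receptor that macrophages also express, averaged 23.3 and 25.2 CPM in the lung PSGL1lo and PSGL1hi groups, against 0.306 and 0.351 CPM in the same liver fractions. Between fractions in lung, Fosl2 fell by 1.04 (edgeR adjusted p = 2.1e-08), the G protein regulator Rgs2 by 0.85 (edgeR adjusted p = 2.3e-08) and the cAMP-responsive factor Crem by 0.65 (edgeR adjusted p = 1.1e-05), whereas Cd36 at -0.11 and Ccrl2 at -0.03 did not pass the test. Rgs2 and Crem were higher in PSGL1lo than in PSGL1hi cells in spleen, by 0.30 (edgeR adjusted p = 0.0065) and 0.31 (edgeR adjusted p = 0.023), and Crem and Fosl2 were higher in cGVHD than in GVHD-free spleen, by 0.64 (edgeR adjusted p = 7.4e-05) and 0.71 (edgeR adjusted p = 2.0e-05).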

How the data were processed

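The deposited table holds whole-number counts per gene for 14 libraries, made by the authors and not normalized. Per the labels' protocols, RNA of sorted cells was extracted with the RNeasy kit and libraries were prepared with the Kapa mRNA HyperPrep kit. The submitters' processing notes name TopHat2 2.0.8, HTSeq and the mm9 build, with no roles or settings, and do not say how reads shared by Hspa1a and Hspa1b were treated. From the counts, 13780 genes were kept with filterByExpr, scaled with TMM (also for the CPM levels) and tested with edgeR 4.0.16 in R 4.3.3 (glmQLFit and glmQLFTest, 2-sided), with 1 mean for each of the 7 groups, all 14 libraries sharing the estimate of the spread, and Benjamini-Hochberg adjustment over all genes tested. An adjusted p under 0.05 is a call, a standard error is the log2 difference divided by the square root of F, and "rose" or "fell" is used of calls. The fit was tested on simulated data.

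The 10 genes, the gene lists and the tests were chosen with earlier results of these data known. Tested were PSGL1lo against PSGL1hi in each organ, cGVHD against GVHD-free, and the difference of the PSGL1lo effect of lung or liver from spleen. Contrasts between organs were described only. The 10 genes are named throughout. Named beside them are the 8 genes with the highest Pearson r of log2(CPM + 1) with the members' mean standardized profile, and from each other list up to 4 called genes with the largest change; the text gives a part of these. Alternatives were DESeq2 1.42.0 and its size factors, limma voom 3.58.1, no filter, a replicate block, only the groups compared, Hspa1a and Hspa1b summed, and each library left out in turn. Replicate libraries differed by 2.97 to 18.6 times the counting noise (chi-square per degree of freedom), so none is a copy of another. Total counts of 13222005 to 33532595 put 3 counts, the limit a count of 0 allows, at 0.0895 to 0.227 per 1000000 of a library's unscaled total. Promoter windows are from RefSeq on GRCm38.p6, and overlapping neighbours and open reading frames from GENCODE M21 on GRCm38. That is another build than that of the counts, so neighbours are named only.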

Additional observations from a re-analysis of the deposited data

Results flagged for a closer look

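For Hsph1 the PSGL1lo effect differed between organs by a test of the difference itself. Hsph1 was lower in PSGL1lo than in PSGL1hi cells in lung (log2 difference -0.90) and liver (-0.39) and higher in spleen (0.41). Lung minus spleen was -1.30 (edgeR adjusted p = 1.1e-06) and liver minus spleen was -0.79 (edgeR adjusted p = 0.0016).

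For Dnaja1 the effect was -0.70 in lung and 0.28 in spleen, where it was not called (edgeR adjusted p = 0.0546). Lung minus spleen was -0.98 for Dnaja1 (edgeR adjusted p = 9.4e-05). Of all genes, 16.6% were called for lung minus spleen and 6.84% for liver minus spleen. The 2 calls and 1 call in 10 genes are near those shares. Spleen and the other organs belong to 2 series of library numbers, within each of which the fractions were compared.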

How the results depend on the processing

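No value of the 10 genes changed sign where it was called. Over 728 values of single genes under other settings, 696 kept their side of the threshold, 14 lost a call and 18 gained one. Counts of called genes stayed within 1.5 times of the main count under all settings for the fractions in lung (6 to 8 with libraries left out), liver (2 to 4) and spleen (3 to 4), and for cGVHD against GVHD-free (4 to 5). For the PSGL1lo effect of lung minus spleen, 2 genes were called, 4 with no filter on low counts (Bag3 and Dnajb1 added), 3 with DESeq2 and 3 with only the groups compared (Bag3 added in each), and 2 to 3 with libraries left out. For liver minus spleen 1 was called, 2 with no filter and 2 with DESeq2 (Dnaja1 added), and 1 to 2 with libraries left out. The median log2 difference of lung over liver in PSGL1lo cells was 1.44, 1.198 with Hspa1a and Hspa1b summed, which takes 1 large value out of the list, and 1.425 to 1.505 with libraries left out. Of 1036 counts of the other lists under other settings, 192 moved by over 1.5 times.

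The labels give replicate numbers in every group, but do not say whether same-numbered libraries are paired. Correlations of same-numbered libraries' deviations ranged between -0.156 and 0.175 over 21 pairs of groups. The highest values were those of the 2 cGVHD fractions of the same organ, at 0.175 in lung, 0.095 in spleen and 0.082 in liver. Column names of the lung and liver libraries also carry a shared letter for each replicate number. Pairing within an organ is therefore possible. A fit with the replicate number as 1 block shared by all groups kept the counts of called genes at 8, 3 and 4 in lung, liver and spleen, at 6 for cGVHD against GVHD-free, and at 2 and 1 for the differences of the effect. That block does not model pairing within single organs, which was not fitted. With 2 libraries per group, a difference that misses the threshold is not shown to be absent. Liver levels of Hspa1a rest on few counts. Standard errors and SDs cover the spread between libraries, and the limits given for a count of 0 cover counting error only.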
